A study of Homo sapiens with 3 samples.

Results

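Pericentromeric HDAC1 summits are the peak summits that lie on chromosomes 1 to 22 inside the centromeric bands of the hg19 human genome map (the bands stained and drawn as "acen") or within 5 Mb of their outer edges. Position alone chose them, without regard to their scores. They number 657 of 9476 summits in the control list and 766 of 11553 in the H89 list. Their windows cover 318.2 Mb, of which 98.2 Mb are centromeric bands and 220.0 Mb are flanks, 110.0 Mb on each side. The 8401 control and 10219 H89 summits elsewhere on the autosomes are the comparison.

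The cells were HepG2, an established human liver cancer line, and HDAC1 was mapped by CUT&Tag, in which a tethered transposase tags DNA beside the antibody target. The labels give both HDAC1 libraries the genotype WT, one without H89 and one with it. H89 is a small-molecule inhibitor of protein kinase A (PKA), and the sources used here state neither its dose nor its exposure time. An IgG library, from cells without H89, was not analysed here, so no background stands beside the values. There was 1 library per condition. Differences therefore have no replicate check, a difference between the libraries cannot be told apart from a difference in depth or efficiency, and no p-value is given. Read depth is unknown. Intervals of shares, densities and ratios are exact (Clopper-Pearson) 95% intervals, and those of medians are 95% intervals taken from the ranked scores. They cover counting error only and treat summits as independent. The lists hold no gene levels, so the cell type was not checked against markers.

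HDAC1 removes acetyl groups from histone tails and works as the catalytic subunit of corepressor complexes such as Sin3, NuRD and CoREST. Centromeres are built on long arrays of satellite repeats, and the chromatin beside them is classically compact, poorly acetylated and rich in HP1 and in methylated histone H3. Further out, the flanks turn into ordinary euchromatin, often through stretches of segmental duplications, which are blocks of near-identical sequence shared by several places in the genome. The hg19 map leaves most centromeric satellite, the heterochromatin of 1q12, 9q12 and 16q11.2 and the short arms of the acrocentric chromosomes as unsequenced gaps, where no read can be placed. Gap lengths were not subtracted here, so densities per Mb over such bands are lower limits of the density in sequenced DNA.

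Per Mb of map length, gaps included, HDAC1 summits were sparser around centromeres than elsewhere on the autosomes in both libraries. They were sparser still inside the centromeric bands, where the map leaves most satellite unsequenced. How much of either difference comes from gaps was not tested. Values with centromeric and heterochromatic bands left out are given below. The control library had 2.06 summits per Mb in the windows and 3.28 per Mb elsewhere, a density ratio of 0.630 (interval 0.581 to 0.682). The H89 library had 2.41 and 3.99 per Mb, a ratio of 0.604 (0.560 to 0.650). The centromeric bands held 32 summits in the control and 27 with H89, 0.326 and 0.275 per Mb, which is 0.0994 (0.0680 to 0.140) and 0.0690 (0.0454 to 0.1004) of the density elsewhere. The flanks alone came to 0.867 (0.798 to 0.940) of it in the control and 0.842 (0.781 to 0.908) with H89. At the other chromosomal landmark, the last 5 Mb before each chromosome end, the same libraries held 6.40 and 8.32 summits per Mb. These ends are part of the comparison and raise its density, with 1408 of its 8401 control and 1830 of its 10219 H89 summits. Ratios against a comparison without the ends were not computed.

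The order of the arms turned on the acrocentric chromosomes. Over all 22 autosomes the long-arm side held 353 control and 426 H89 summits, ratios of 0.979 (0.878 to 1.09) and 0.971 (0.879 to 1.07) to other autosomal sequence. The short-arm side held 272 and 313, ratios of 0.754 (0.666 to 0.851) and 0.714 (0.636 to 0.799). The short-arm side includes the 5 acrocentric chromosomes (13, 14, 15, 21 and 22), where it falls in the largely unsequenced short arms and held a single summit per library, both in band 21p11.2. With those 5 chromosomes left out of the flanks and of the comparison, a choice made after seeing the data, the short-arm flanks had 3.19 control and 3.67 H89 summits per Mb, ratios of 0.942 (0.832 to 1.06) and 0.894 (0.796 to 1.001). The long-arm flanks then had 2.88 and 3.39 per Mb, ratios of 0.852 (0.747 to 0.968) and 0.826 (0.732 to 0.928). These still include the long-arm flanks of chromosomes 1, 9 and 16, beside the unsequenced heterochromatin named above, which held no summit in either list. The arms were therefore not matched for gaps, and their order does not follow from these values. The intervals of the 2 arms overlapped.

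Within 10 Mb, the short-arm density was highest between 4 and 6 Mb from the centromeric bands and lower on both sides of that stretch. The control had 1.45 summits per Mb in the first 1 Mb, 4.91 between 4 and 5 Mb, 4.36 between 5 and 6 Mb, and 1.36 between 8 and 9 Mb. With H89 the values were 1.86, 5.77, 5.0 and 1.77. Each step includes the same length of the acrocentric short arms. Chromosome 16 supplied 35 of the 108 control and 36 of the 127 H89 summits between 4 and 5 Mb, and without it the density there was 3.48 and 4.33 per Mb. Without chromosome 16 the first 4 steps of the control ranged from 1.52 to 1.71, below the 3.48 of the fifth. On the long arms the control density was 3.0 per Mb in the first 1 Mb, 4.09 in the second, 2.36 in the third and 4.18 in the fifth. Just inside the 5 Mb limit lay a control summit in 16p11.2 with a score of 11.4 and an H89 summit in 2p11.2 with a score of 3.44. Just outside it, 5.01 Mb from the centromeric bands of chromosome 14, lay a shared site in 14q11.2 that scored 6.91 in the control and 6.17 with H89. The score is read as the −log10 of an unadjusted p-value.

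**Figure D1:**
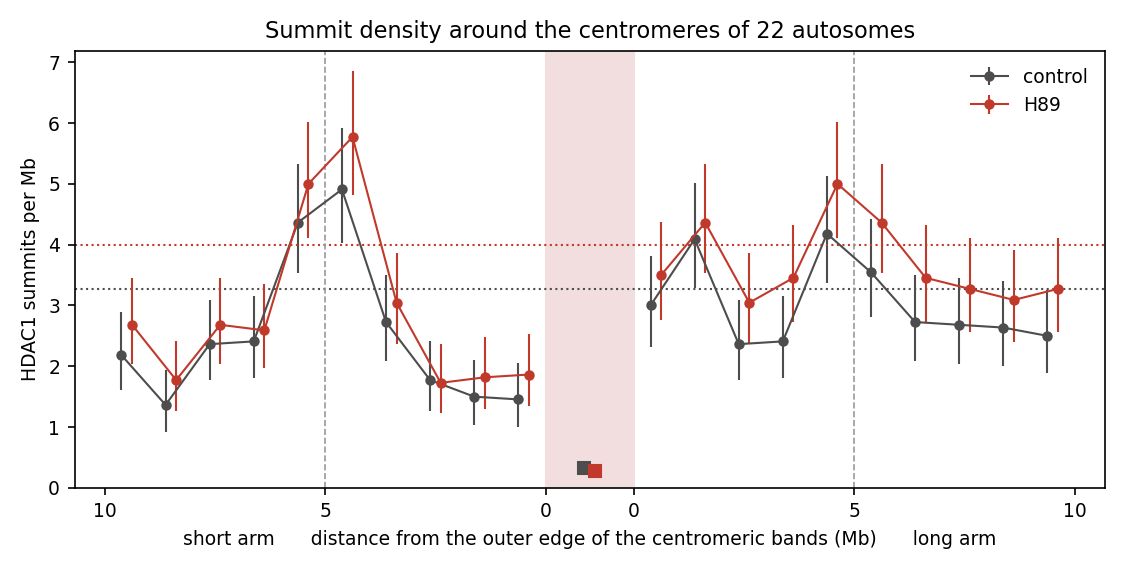
HDAC1 summits per Mb (vertical axis) in 1 Mb steps of distance from the centromeric bands (horizontal axis, short arm to the left), with 95% intervals, for the control and H89 libraries. Squares in the shaded area are the centromeric bands, not drawn to scale, dotted lines the density of other autosomal sequence, and dashed lines the 5 Mb limit. Densities were 0.326 and 0.275 per Mb in the centromeric bands and peaked at 4.91 and 5.77 in the short-arm step from 4 to 5 Mb.

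Few of the members lay in the heterochromatic bands, which take up much of the windows. Centromeric bands and variable heterochromatin (the "gvar" bands of the map, such as 1q12 and 9q12) make up 46.8% of the window length but held 49 control and 49 H89 members, 7.46% and 6.40%. Giemsa-negative bands, which stain pale and are known to be gene-rich, make up 37.1% of the window length and held 514 control and 611 H89 members, 78.2% and 79.8%. With centromeric, variable and stalk bands left out on both sides, a comparison chosen after seeing the data, the direction turned. Windows then held 3.63 control summits per Mb against 3.37 elsewhere, a ratio of 1.08 (0.992 to 1.17), and with H89 4.28 against 4.09, a ratio of 1.05 (0.969 to 1.13). Both intervals include 1, and the mix of the Giemsa classes that remain differs between the windows and elsewhere.

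Within single Giemsa classes the direction differed by class. Giemsa-negative bands held 4.36 control summits per Mb in the windows and 4.90 elsewhere, a ratio of 0.888 (0.810 to 0.972), and with H89 5.18 against 5.99, a ratio of 0.865 (0.795 to 0.940). In the second palest class of Giemsa-positive bands the ratios were lower, at 0.444 (0.242 to 0.748) and 0.431 (0.246 to 0.703), from 14 and 16 members. The classes on either side did not share this. In the palest class the ratios were 0.851 (0.617 to 1.15) and 0.849 (0.638 to 1.11). In the third palest they were 1.11 (0.674 to 1.73) and 0.976 (0.600 to 1.50). In the darkest class, where summits are few everywhere, the ratio was 1.30 (0.719 to 2.18) in the control and 0.940 (0.496 to 1.63) with H89, from 15 and 13 members. Variable heterochromatin held 17 control and 22 H89 members, 0.336 and 0.435 per Mb, against 0.148 and 0.190 elsewhere. The ratios were 2.27 (0.897 to 6.49) and 2.29 (1.01 to 5.65), from 7 and 9 summits elsewhere. Most of the variable-band members lay on chromosome 19, in 19p12 (8 control and 10 H89) and 19q12 (6 and 7). None lay in 1q12 or 9q12. Stalk bands held none in 2 Mb of window.

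**Figure D2:**
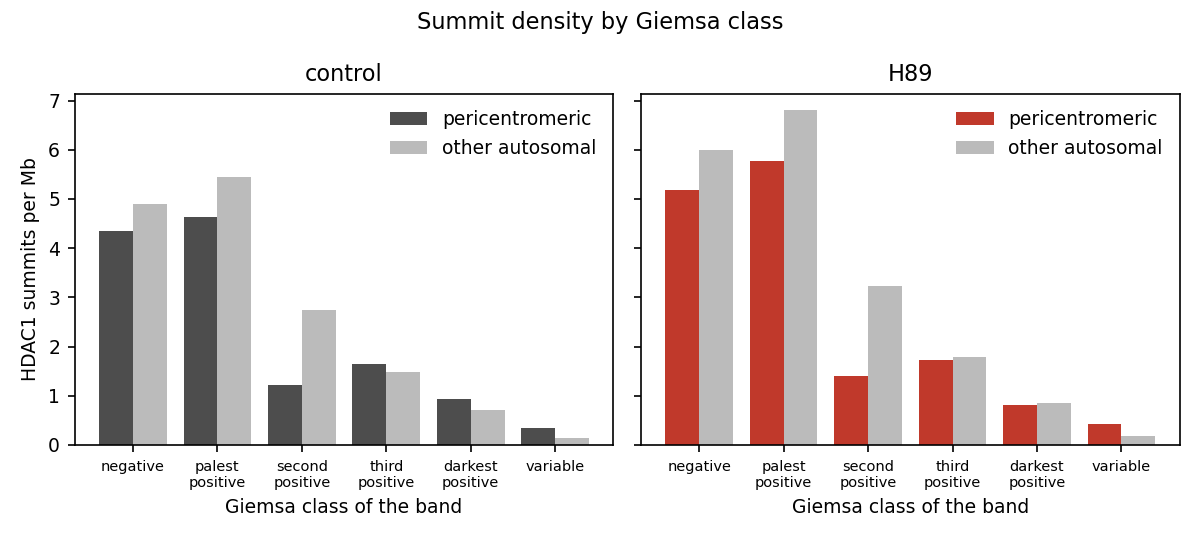
HDAC1 summits per Mb (vertical axis) in each Giemsa class of chromosome band (horizontal axis), inside the pericentromeric windows and in other autosomal sequence, control on the left and H89 on the right. In Giemsa-negative bands the windows held 4.36 and 5.18 summits per Mb against 4.90 and 5.99 elsewhere, and variable bands held under 1 per Mb in both.

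Pericentromeric summits were unevenly spread over chromosomes, and chromosome 20 held the most in both lists. Chromosome 20 had 102 control and 114 H89 members, 7.39 and 8.26 per Mb, close to 6.81 and 7.88 on its remaining length. Chromosome 17 followed with 67 and 85, chromosome 16 with 63 and 67, chromosome 2 with 62 and 72, and chromosome 22 with 47 and 60. Chromosome 14 equalled chromosome 22 in the control with 47, and held 52 with H89. The 5 richest chromosomes of each list held 51.9% of control and 52.0% of H89 members. As background, HepG2 is known to carry extra copies of chromosomes 2, 14, 16, 17 and 20. Copy number was not measured here. Without chromosome 20 the density ratio of the windows to other sequence was 0.568 in the control and 0.548 with H89.

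On most chromosomes the window held fewer summits per Mb than the remainder of the same chromosome. This was so on 18 of 22 chromosomes in the control and on 19 with H89. Map gaps count in these lengths, and those of the centromeric bands lie in the windows alone, which lowers the window density. Chromosomes 2, 14 and 20 had more in the window in both lists, by factors of 1.24, 1.19 and 1.09 in the control and 1.23, 1.10 and 1.05 with H89. Chromosome 18 had a factor of 1.20 in the control and 0.948 with H89. Chromosome 19, whose centromere is known to be flanked by clusters of zinc-finger genes, had 2.25 control summits per Mb in the window against 14.2 on its remaining length, the densest remainder of any autosome, and 2.61 against 17.7 with H89.

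Of the 44 flanks, 8 had no summit in either list. They were the long-arm flanks of chromosomes 1, 9 and 16 and the short-arm flanks of chromosomes 3, 13, 14, 15 and 22. All but the short-arm flank of chromosome 3 lie in the heterochromatin or acrocentric short arms named above as gaps. No read can be placed in a gap, so a count of 0 there says nothing about HDAC1. For a sequenced flank of 5 Mb, a count of 0 allows up to about 0.600 summits per Mb, with 3 counts taken as the approximate upper limit. On chromosome 1 no summit of either list fell between 121485198 in band 1p11.2 and 142890810 on the long arm, a stretch of 21.4 Mb. The summit-free stretch across the centromere was 19.3 Mb on chromosome 9 and 13.4 Mb on chromosome 16. These 3 chromosomes carry large blocks of heterochromatin beside the centromere. Over the 17 chromosomes that are not acrocentric the stretch had a median of 5.62 Mb, and the shortest, on chromosome 20, was 3.62 Mb.

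**Figure D3:**
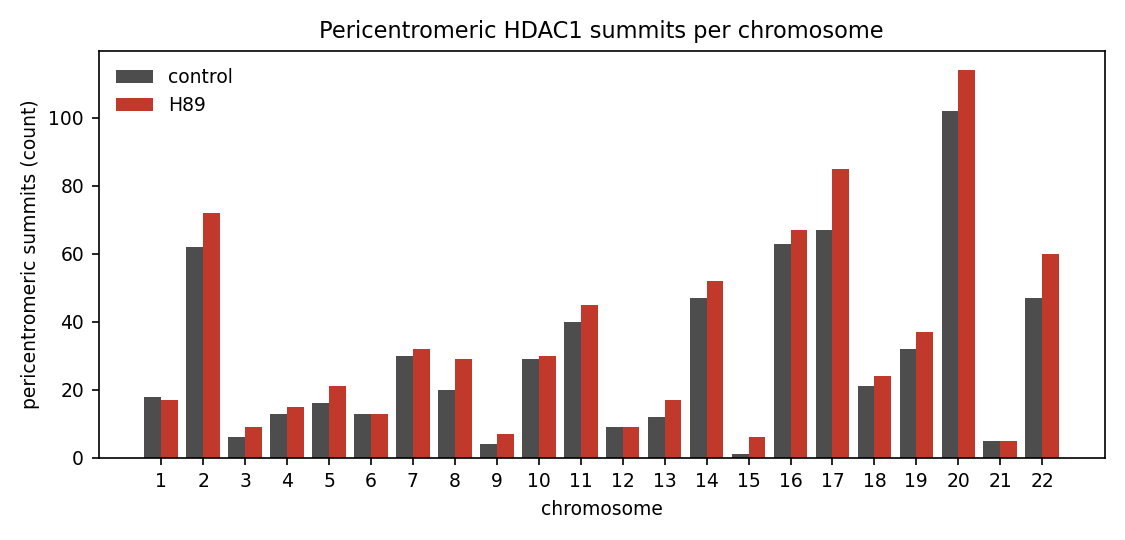
Number of pericentromeric HDAC1 summits (vertical axis) on each autosome (horizontal axis) in the control and H89 libraries. Chromosome 20 had 102 and 114, chromosomes 2, 16 and 17 had between 62 and 85, and chromosome 15 had 1 and 6.

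A few bands held a large part of the pericentromeric summits. Members fell in 69 bands, and the 6 richest held 259 control and 302 H89 members, 39.4% of each list. Band 16p11.2, known for a recurrent microdeletion between segmental duplications, held 63 and 67 members in 5.00 Mb, 12.6 and 13.4 per Mb. Band 14q11.2, which contains the T-cell receptor alpha locus, held 47 and 52. Band 22q11.21, the region of the DiGeorge deletion, held 43 and 56. Band 20q11.21 was the densest of the 6, with 42 and 44 members in 2.70 Mb, 15.6 and 16.3 per Mb. Band 17q11.2, where the neurofibromatosis gene NF1 lies, held 31 and 46, and 17p11.2, the region of the Smith-Magenis deletion, held 33 and 37. Single genes were not assigned to summits, since no gene map of this build was used here.

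The densest 100 kb of all windows lay in 20q11.21, from 30100001 to 30200000 on chromosome 20, with 6 control and 10 H89 summits. The highest score there was 12.5 in the control and 11.3 with H89. The next 2 lay in 16p11.2. From 29800001 to 29900000 of chromosome 16 there were 7 control and 6 H89 summits, with highest scores of 12.8 and 14.8. From 30900001 to 31000000 there were 5 and 7, none above a score of 5.75. Close neighbours were not more frequent in the windows than elsewhere. Of the control members, 18.7% had another summit of the list within 5 kb, against 21.4% of other autosomal summits, and with H89 the shares were 20.2% and 24.7%.

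Summits inside the centromeric bands themselves were few and lay on few chromosomes. The control list had them on 9 chromosomes and the H89 list on 9, with 13 chromosomes lacking any in each. Chromosome 2 held the most, 13 and 10, most of them in 2q11.1, followed by chromosome 10 with 6 and 4, chromosome 20 with 3 and 5 and chromosome 17 with 3 and 2. Chromosome 21 had one in the control alone and chromosome 4 one with H89 alone. All 6 control and 4 H89 summits of chromosome 10 lay in 10p11.1, on the short-arm side of the centromere.

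Scores of these summits had a median of 4.77 in the control and 5.49 with H89, against 4.77 and 4.76 outside the windows, and the highest were 14.7 and 22.2. Both highest scores belong to a single site in 20p11.1 on chromosome 20, with the summit at 25677500 in the control and 25677381 with H89. Both other pairs of the band also scored higher with H89. The site at 25604516 scored 9.94 in the control and 12.3 at 25604514 with H89, and the site at 25991455 scored 7.67 and 12.3 at 25991435. In 3p11.1 of chromosome 3, the control score was 4.77 at 88107990 and the H89 score 9.92 at 88108307. In 19q11 of chromosome 19, the control score was 7.67 at 28284738 and the H89 score 12.3 at 28284729.

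A pair of strong centromeric-band sites scored lower with H89. In 17q11.1 of chromosome 17 the control score was 12.3 (position 25659838) and the H89 score 9.92 (25659807). In 2p11.1 of chromosome 2 they were 12.1 (91845188) and 9.97 (91845257). In 2q11.1, 6 of the 8 pairs differed by less than 0.1. In all, 24 pairs lay inside centromeric bands, of which 13 scored higher with H89 by more than 0.1, 2 lower and 9 equal. Of all autosomal pairs, 49.8% scored higher and 14.6% lower by that measure.

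**Figure D4:**
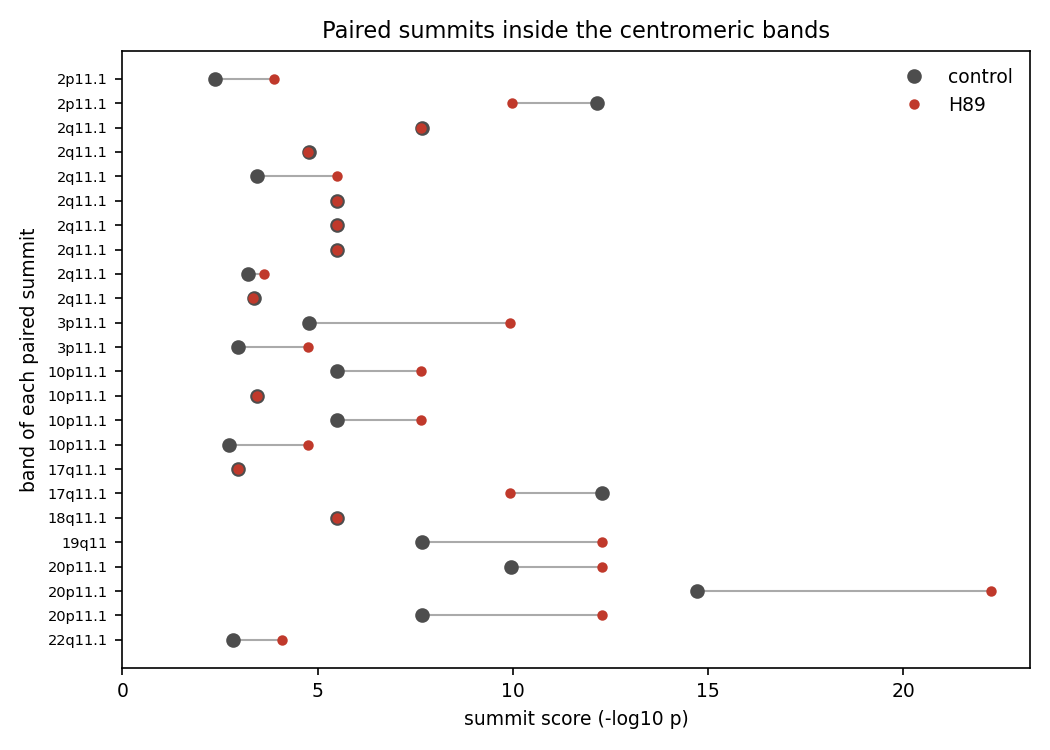
Scores (horizontal axis, −log10 p) of the 24 paired summits inside centromeric bands, one line per pair with its band on the vertical axis, control in grey and H89 in red. The widest gap is in 20p11.1, 14.7 in the control and 22.2 with H89, and 2 pairs, in 2p11.1 and 17q11.1, were lower with H89.

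The control sites of the windows were mostly called again with H89, at about the share seen elsewhere. Of 657 control members, 579 had an H89 summit within 1000 bp, 88.1% (85.4 to 90.5), where 87.5% of all autosomal control summits had one. Outside the windows the share was 87.5% (86.7 to 88.2). Of 766 H89 members, 578 had a control summit within 1000 bp, 75.5% (72.2 to 78.5), against 72.4% of all autosomal H89 summits. Outside the windows it was 72.2% (71.3 to 73.1), and within 5 Mb of chromosome ends 67.2% (65.0 to 69.3). Within 2 Mb of the centromeric bands the H89 share was 81.1% (76.1 to 85.5). Inside the centromeric bands 25 of 32 control and 25 of 27 H89 summits had a partner.

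Sharing followed the score, in the windows as elsewhere. Among H89 members scoring from 2 up to 3, 50.7% (42.0 to 59.5) had a control partner, against 46.0% (43.8 to 48.2) elsewhere. From 5 up to 10 the shares were 91.9% (88.1 to 94.7) and 88.4% (87.3 to 89.4). All 38 control members (interval 90.7 to 100) and all 68 H89 members (94.7 to 100) that scored 10 or more had a partner. Elsewhere on the autosomes 1 control and 14 H89 summits of that score had none.

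The 78 control and 188 H89 members without a partner scored low, with medians of 3.45 and 3.44. The highest in the control, at 121485198 in 1p11.2 on chromosome 1, scored 7.38. It lay 14.8 kb from the centromeric bands, and the nearest H89 summit was 157 kb away. The next, at 18264465 in 22q11.21 on chromosome 22, scored 6.16 and lay 4.14 kb from an H89 summit. The remaining 3 of the 5 highest, in 10q11.21 on chromosome 10 (42712739), 12p11.22 on chromosome 12 (29533919) and 17p11.2 on chromosome 17 (19091443), each scored 5.50, a score they shared with other summits of the list.

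The highest H89 member without a partner, at 30196418 in 20q11.21 on chromosome 20, scored 9.31 and was 1.14 kb from a control summit, just beyond the pairing distance. A pair of summits in 22q11.21 on chromosome 22 followed, at 21754122 with a score of 8.21 and at 21889300 with a score of 8.0, 17.3 kb and 66.7 kb from a control summit. The fourth, at 19284529 in 18q11.2 on chromosome 18, scored 7.66 and was 92.2 kb away. The fifth, at 30347415 in 16p11.2 on chromosome 16, scored 6.14 and was 1.38 kb away. No partnerless member of either list reached a score of 10.

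More pericentromeric summits were listed with H89 than in the control, by a ratio close to that elsewhere. Dividing the H89 by the control count gave 1.17 (1.05 to 1.30) in the windows and 1.22 (1.18 to 1.25) elsewhere. It was 0.844 (0.486 to 1.45) in the centromeric bands, 1.15 (0.975 to 1.36) on the short-arm side and 1.21 (1.05 to 1.39) on the long-arm side. At a score of 5 or more it was 1.36 (1.16 to 1.60), from 266 and 363 members, and 1.33 (1.27 to 1.39) elsewhere. At 10 or more it was 1.79 (1.19 to 2.74), from 38 and 68 members, and 1.85 (1.66 to 2.06) elsewhere. The intervals overlapped in each of these comparisons, which does not show that the ratios were equal.

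Of the 22 chromosomes, 18 had more members with H89, 3 had equal numbers and only chromosome 1 had fewer, 18 in the control and 17 with H89. Among the 17 chromosomes with at least 20 members in both lists together, chromosome 8 had the highest ratio, 1.45 (0.793 to 2.70) from 20 and 29 members, and chromosome 1 the lowest, 0.944 (0.457 to 1.94). Both intervals are wide and include 1. On chromosome 15 the only control member lay in 15q11.2 at 23034243, and the H89 list had 6 members in that band, which contains much of the imprinted region of Prader-Willi and Angelman syndromes. Of these, 5 lay over 50 kb from the control summit, and the highest score was 5.49.

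Scores in the windows spanned a range like that elsewhere, and the highest values of each list lay in the much larger set outside. The control median was 4.33 (interval of the median 3.88 to 4.77), against 4.77 elsewhere, and the upper quartile was 5.51 in both. With H89 the median was 4.8 (4.76 to 5.28), against 4.76, and the upper quartile 6.68 against 6.95. Scores took few distinct values, 105 among the control members and 126 among the H89 members, so a median can jump between neighbouring values. The share scoring 10 or more was 5.78% (4.13 to 7.85) against 6.48% (5.96 to 7.02) elsewhere in the control, and 8.88% (6.96 to 11.1) against 9.84% (9.27 to 10.4) with H89. At 20 or more it was 1.07% (0.429 to 2.18) against 0.655% (0.494 to 0.851) elsewhere in the control. With H89 it was 1.57% (0.812 to 2.72) against 1.42% (1.20 to 1.67). The highest member scored 32.0 in the control and 37.5 with H89, ranks 9 and 17 among the autosomal summits of each list.

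Many scores sat on the steps that small counts give. In the control, 39.0% (35.2 to 42.8) of members lay on the steps of −log10 Poisson tail probabilities at a single mean of 0.0269, against 41.8% (40.7 to 42.9) elsewhere. That mean was fitted to the same scores, by placing a step on the commonest score of a range. The match at that step was therefore fixed in advance. The step of 3 or more counts, a score of 5.50, held 88 control members, and the step of 2 or more, a score of 3.45, held 104. Inside the centromeric bands 18 of 32 control (56.3%, 37.7 to 73.6) and 18 of 27 H89 summits (66.7%, 46.0 to 83.5) lay on such steps. On the long-arm side the shares were 35.4% (30.4 to 40.6) and 34.5% (30.0 to 39.2), against 41.8% and 41.6% (40.7 to 42.6) elsewhere.

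At sites called in both libraries, scores were more often higher with H89. Of 571 pairs of mutually nearest summits in the windows, 303 (53.1%, 48.9 to 57.2) had an H89 score above the control score by over 0.1, where 49.8% of all autosomal pairs did. Another 85 (14.9%, 12.1 to 18.1) scored lower by more than 0.1, against 14.6% of all autosomal pairs, and 183 were within 0.1. The median difference, H89 minus control, was 0.85 in the windows and 0.00 elsewhere, where 49.5% (48.3 to 50.7) of pairs were higher. With shares this close to 50%, the median falls between pairs that tie and pairs that moved by a whole step, so it can differ widely for a small difference in shares. Where the mean score reached 10, 33 of 48 pairs (68.8%, 53.7 to 81.3) were higher and 9 (18.8%, 8.95 to 32.6) lower with H89, against 75.4% (72.2 to 78.3) and 10.98% (8.89 to 13.4) elsewhere. The median offset between paired summits was 52 bp, against 53 bp elsewhere.

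The 6 richest bands ranged around the autosomal shares of 49.8% higher and 14.6% lower, except 14q11.2 in the share lower. Band 16p11.2 had 32 pairs higher and 7 lower with H89 of 54. Band 17q11.2 had 15 higher and 3 lower of 28, and 22q11.21 had 19 higher and 3 lower of 35. Band 20q11.21 had 16 higher and 5 lower of 35, and 17p11.2 had 13 higher and 5 lower of 28. Band 14q11.2 had 20 higher and 15 lower of 42, the most pairs lower of the 6 bands and a share well above 14.6%.

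Each of the 5 strongest pericentromeric pairs, ranked by mean score, was higher with H89, and the H89 score enters that ranking. The first lay in 14q11.2 on chromosome 14, 1.71 Mb from the centromeric bands, with a control score of 27.5 at 20811511 and an H89 score of 35.6 at 20811526. The second, in 16p11.2 of chromosome 16, went from 24.9 at 30382142 to 37.5 at 30382095. The next pairs were both in 20q11.22 of chromosome 20. One had a control score of 21.6 at 34330357 and an H89 score of 34.9 at 34330356, the largest increase of any member pair, by 13.2. The other had 21.2 at 32581258 and 30.5 at 32581243. The fifth, in 18p11.21 on chromosome 18, had its summit on base 12377456 in both lists, with a control score of 22.3 and an H89 score of 24.8. These strong sites lay between 1.71 and 4.93 Mb from the centromeric bands. A weaker site of 20q11.22 scored higher with H89 by nearly as much, from 4.33 at 33464057 to 17.5 at 33464117.

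The strongest control site of the windows was also the one that scored lower with H89 by the most. It lay in 9p11.2 on chromosome 9, 2.18 Mb from the centromeric bands, with a control score of 32.0 at 45119971 and an H89 score of 10.9 at 45119976, 5 bp apart. The difference of -21.1 was the largest decrease among all 7818 autosomal pairs, the next being -12.4. The other pairs in the window of this chromosome had low scores. The site at 45442841 scored 3.45 and 3.44, the site at 47178407 scored 2.38 and 3.87, and the site at 47180510 scored 4.77 and 2.96. The flank is known for segmental duplications. The sources used here do not say how reads from near-identical copies were placed. The second largest decrease among member pairs, by 4.91, was in 2q11.2 of chromosome 2, from 17.2 at 98612583 to 12.3 at 98612551.

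**Figure D5:**
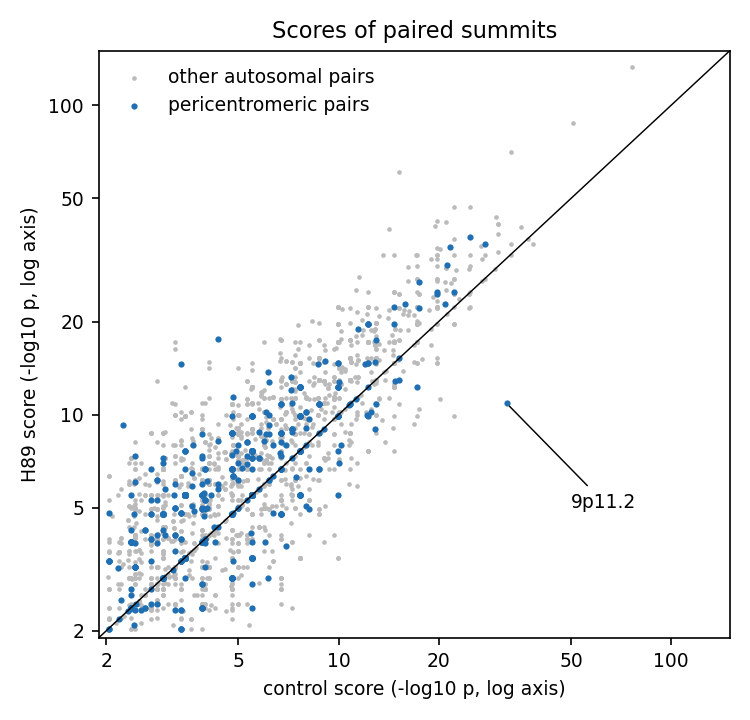
Score with H89 (vertical axis) against score in the control (horizontal axis), both −log10 p on log axes, for 571 pericentromeric pairs in blue and other autosomal pairs in grey, with the line of equal scores. More blue points lie above the line (303 by more than 0.1) than below it (85), and the 9p11.2 site at 32.0 and 10.9 stands apart below.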

How the data were processed

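HDAC1 CUT&Tag summits of 2 HepG2 libraries, control and H89, were used, and the IgG library was not analysed here. Per the submitters' processing notes, Bowtie 0.12.2 and the hg19 build were used. HDAC1 is named in the series title. For the peak caller, its control library, its threshold and the handling of repeat-mapped or duplicated reads, nothing is stated in the sources used here. The deposited tables have no header and give each summit, called separately in each library by its peak name, with a score that is read here, from its values, as the −log10 of an unadjusted p-value. Peak names beginning control001 and treatp001 matched the tables to the libraries titled control and treated. Depth is unknown.

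Summits were placed in bands with the hg19 table of circlize 0.4.16 (R 4.3.3). Windows, densities, sharing within 1000 bp and mutually nearest pairs were computed with Python 3.11.15 (scipy 1.17.1, pandas 2.3.3, numpy 2.4.6, with matplotlib 3.10.9 for plots), and the functions were tested on simulated data. Scores within 0.1 counted as equal, and scores on Poisson steps were matched within 0.001, at a mean fitted to the scores of each list. Intervals of ratios were converted from exact binomial intervals of shares, of summits in the window for densities and of H89 summits for H89 to control ratios. No tests were planned or run. Members and lists were chosen with earlier results of these data known. The rule for named summits takes the 5 pairs with the highest mean score, the 5 highest without a partner in each list, the 3 highest of each list in centromeric bands, the largest difference each way, the summits nearest the 5 Mb limit, the 5 richest chromosomes, the extreme chromosome ratios, the 6 richest bands and the 3 richest 100 kb bins; other named summits and flanks were chosen after their values were seen. Alternatives were other window widths, flanks alone, fewer chromosomes, a minimum score, merged summits, other pairing distances, another tie limit and a reference weighted by Giemsa class. Band classes and arms without acrocentric chromosomes were added after seeing the data. Sequences at the summits were not analysed here.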

Additional observations from a re-analysis of the deposited data

Results flagged for a closer look

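Some summits lay in sequence that the autosomal windows leave out. The same 5 Mb window around the centromere of chromosome X held 5 control and 12 H89 summits. Unplaced or unlocalised contigs, other than alternative haplotypes, held 27 control and 24 H89 summits on 11 contigs in each list, with medians of 4.77 and 5.72. The highest, on an unlocalised contig of chromosome 7, had its summit at position 31092 in both lists with a score of 31.8 in each. Each of these counts is above the 3 that a count of 0 allows, which is a counting limit and says nothing about background. The labels give no position of these contigs relative to centromeres, and the IgG library was not analysed beside them.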

How the results depend on the processing

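Of 64 values under alternatives other than leaving out a chromosome, 44 stayed within the interval of the reported value. The density ratio of windows to other sequence, control then H89, was 0.416 and 0.380 with a 2 Mb window, 0.694 and 0.675 with 10 Mb, 0.867 and 0.842 in the flanks alone, and 0.893 and 0.865 in the flanks against a reference weighted to their Giemsa classes. With choices made after seeing the data it was 0.888 and 0.865 in Giemsa-negative bands, and it turned to 1.08 and 1.05 without centromeric, variable and stalk bands. The share of H89 members with a partner was 81.1% with a 2 Mb window. With both lists limited to scores of 5 or more, so that partners below 5 no longer counted, it was 62.5%, the H89 to control ratio was 1.36 and the medians were 6.70 and 7.22. When the identical base was required, 0.913% of control and 0.783% of H89 members had a partner, and 66.7% of those pairs were higher with H89.

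Leaving out each chromosome in turn moved the density ratio from 0.568 (without 20) to 0.667 (without 19) in the control and from 0.548 to 0.641 with H89, and the other results stayed within their intervals. Unknown depth, 1 library per condition and unsequenced centromeric DNA limit all values.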
